A study of Mus musculus with 8 samples.

Results

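Injection of miR-29a was compared with injection of a negative control nucleotide (NC) in livers of mice that had received TAA. The comparison used the 4 TAA arrays of a series of 8 one-colour Agilent arrays, chosen by their labels. They came from male mice given TAA, the usual abbreviation of the liver toxin thioacetamide, for 5 weeks to induce fibrosis. In the 1 or 2 weeks of observation that followed, NC or miR-29a was injected every 3 days. Each combination of week and oligonucleotide had 1 array: 1-week NC, 1-week miR-29a, 2-week NC and 2-week miR-29a. All mice of these groups had received TAA, so no array shows an untreated liver. The sources used here give no strain, age, dose, carrier or route, and do not say if an array holds RNA of a single animal or of several. The study's design gives a total n of 8 for TAA beside the 4 TAA arrays used here, and what that n counts is not stated. With 1 sample per combination there is no spread between replicates. A p-value over the 4 arrays speaks of these samples alone. It rests on how far the 2 weekly differences disagree and on a spread shared over all features. The other 4 arrays, with CCl4 in place of TAA, serve here only to show where the TAA livers differ.

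Levels are given as log2 signal minus the 75th percentile of the array, so that a gene at 0 is as bright as the 75th percentile probe and a step of 1 is a 2-fold difference. A difference is always the miR-29a array minus the NC array of the same week. Of 55657 probes left after control and outlier-marked spots were removed, those that passed the scanner's test of being well above background on 2 or more of the 4 arrays stayed, and the brightest probe stood for a gene. This left 18690 features, 12841 of them protein coding. Between 43.9% and 48.2% of spots per array were well above background and 0 were saturated. Each of 6 hepatocyte markers was well above background on every TAA array, and 0 of 4 adipocyte markers were so on any array. In whole tissue, fewer cells of a type and less RNA per cell cannot be told apart.

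The 1-week NC array stood apart from the rest of the TAA arrays in its acute phase, neutrophil and macrophage genes. Its summed level of 6 Kupffer cell markers was 8.21, against 6.11, 6.15 and 6.28 on the 1-week miR-29a, 2-week NC and 2-week miR-29a arrays. All 10 neutrophil markers were well above background on it, against 6, 6 and 7 on those arrays. The summed neutrophil level was 8.86 on it and between 6.75 and 7.37 on the other arrays. Every 1-week difference rests on this array, so the 1-week medians of gene lists are also given with the 2-week NC array in its place where this turned their sign or moved them by over 1.5 times, an alternative added after the data were seen. That replacement shares its control with the 2-week difference, so likeness between the weeks is not read from it.

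MicroRNAs of the miR-29 family guide repressor complexes to messenger RNAs that pair with the seed, bases 2 to 8 of the mature strand. The family is known above all for restraining collagens and other matrix genes in fibrosis, and stellate cells of fibrotic liver are known to lose it. The labels name miR-29a without saying which form was injected. The mature strands of the family are printed from RefSeq (GRCm38.p6) to show what they share, with the seed in capitals.

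miR-29a-3p: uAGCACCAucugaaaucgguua
miR-29b-3p: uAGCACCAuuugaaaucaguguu
miR-29c-3p: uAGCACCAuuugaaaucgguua

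Only these 3 of 1679 mature mouse miRNAs in that table hold this seed. The miR-29a strand lies at chr6:31062673-31062694 on the minus strand and is 22 bases long. Counted from its 5′ end, miR-29c differs from it by C10U, and miR-29b, 1 base longer, by C10U, G18A, U21G and A22U. The letters pairing with the seed in a messenger RNA are TGGTGCT, written as DNA.

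Over both weeks together, limma with week as a term called 0 of 18690 features at a Benjamini-Hochberg adjusted p of 0.05 (0%), the lowest adjusted p being 0.416. Without adjustment, 700 features had a p under 0.05, 384 higher and 316 lower with miR-29a. The fit had 1 residual degree of freedom, beside 2.68 from the spread that limma shares over all features, so each SE rests mostly on the latter. Scaling by the median of each array in place of the 75th percentile gave 420 calls, 129 higher and 291 lower. Among these were 62 of the 73 features that were more than 2-fold higher in both weeks and 79 of the 81 that were more than 2-fold lower. Under that scaling the shared spread carried 142 degrees of freedom, so nearly the same spread served every feature. The calls were then close to a cut on the mean difference. Features past 2-fold in both weeks mostly pass such a cut, so their share among the calls is no support for them. The fold changes and counts that follow are therefore descriptions of 2 pairs of arrays, and no gene is said to have changed.

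More features were past 2-fold at 1 week than at 2 weeks. At 1 week 840 features (4.49%) were past 2-fold higher and 1167 (6.24%) past 2-fold lower. At 2 weeks 377 (2.02%) were higher and 298 (1.59%) lower. With the 2-week NC array in place of the 1-week one, 1147 were past 2-fold higher and 1236 lower at 1 week. The 1-week miR-29a array correlated at 0.968 with each TAA NC array, against 0.986 for the 2-week pair. The median difference over all features was 0.13 at 1 week and −0.01 at 2 weeks, and 62.6% and 47.5% of features were above 0. With the array medians as scale these medians were 0.15 and −0.18, and 64.1% and 24.9% of features were above 0, so a small difference at 2 weeks has no settled direction. Past 2-fold in both weeks were 73 features higher (0.391%) and 81 lower (0.433%). The 73 were 8.69% of the features higher at 1 week and 19.4% of those higher at 2 weeks, and the 81 were 6.94% and 27.2% of those lower. Another 151 features (0.808%) were past 2-fold in opposite directions. At 1 week alone, with a difference under 0.5 at 2 weeks, stood 569 higher and 764 lower, and at 2 weeks alone 131 and 93.

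**Figure D1:**
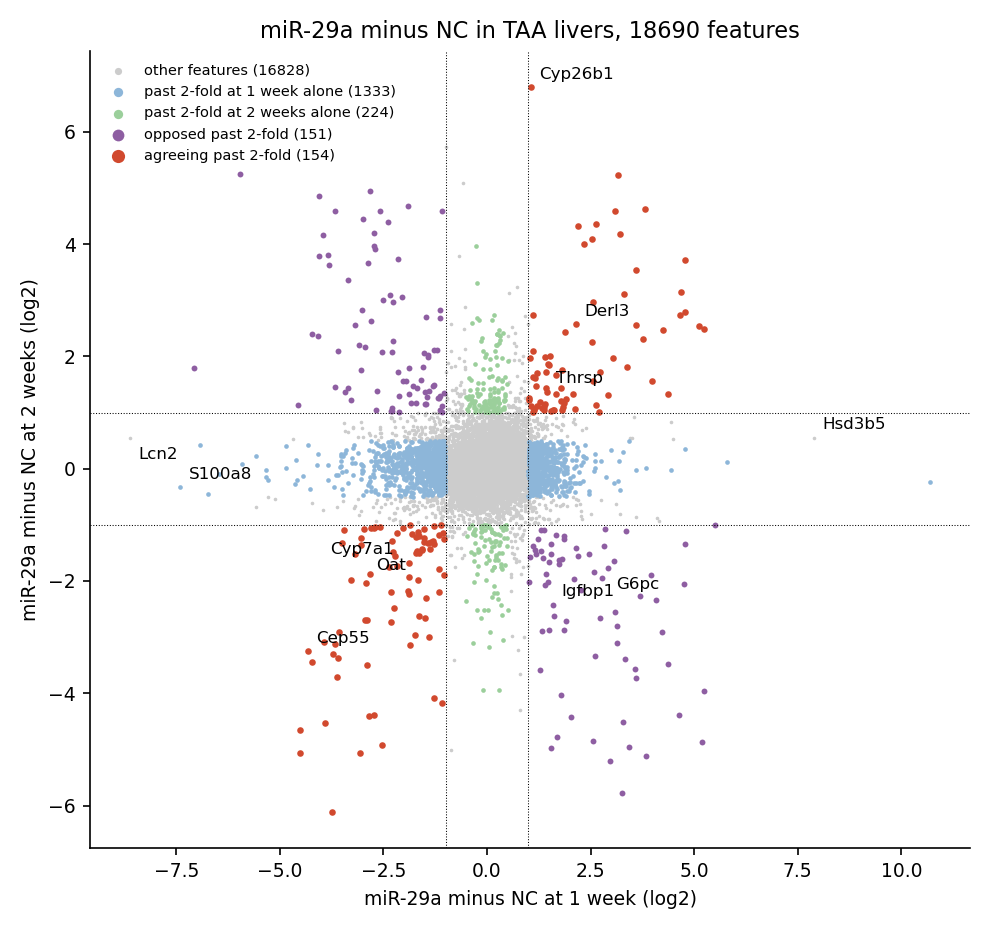
Each point is 1 of 18690 features, placed by its miR-29a minus NC difference (log2) at 1 week (x axis) and at 2 weeks (y axis), with dotted lines at 2-fold. Points spread further along the 1-week axis than along the 2-week axis, and 73 features at upper right and 81 at lower left lie past 2-fold in the same direction in both weeks.

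The features that agreed were in large part dim. Of the 73 higher, 19 were well above background on all 4 arrays and 41 only on both miR-29a arrays. Of the 81 lower, 22 were so on all 4 arrays and 36 only on both NC arrays. Clone, accession and predicted-gene names aside, 28 and 46 of them carry a gene symbol.

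Among agreeing genes measured on all 4 arrays and higher with miR-29a was Thrsp, a regulator of hepatic lipogenesis. Thrsp stood at 6.36 (NC) and 7.82 (miR-29a) at 1 week and at 5.50 and 6.87 at 2 weeks, 2.75-fold and 2.59-fold higher with miR-29a (limma mean difference 1.41 ± 0.20 SE, adjusted p = 0.864). Both miR-29a arrays lay above both NC arrays. Its probe lies at chr7:104561649-104561708 (mm9, minus strand). Genes that make fatty acids gave another picture as a list: of 27 lipogenic genes 21 were higher at 1 week (62.6% of all features, list median 0.54) and 13 at 2 weeks (47.5%, median −0.02, above 0 with quantile normalization). Srebf1, which encodes the lipogenic transcription factor SREBP1, was also higher, at 2.32 and 3.98 at 1 week and at 1.96 and 2.86 at 2 weeks. Fasn, fatty acid synthase, was higher by 1.00 and 0.79. These 2 genes were named after their values were seen.

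Derl3, a component of the pathway that removes misfolded proteins from the endoplasmic reticulum, stood at 1.03 and 3.19 at 1 week and at −1.17 and 1.40 at 2 weeks. It was thus 4.46-fold and 5.94-fold higher with miR-29a (mean difference 2.36 ± 0.23 SE, limma adjusted p = 0.536). Its list of 24 chaperone and quality-control genes of that compartment had medians of 0.12 and 0.26, with 14 genes higher in both weeks (31.1% of all features). The 1-week median of the list was below 0 with quantile normalization. Trib3, a stress-induced pseudokinase, stood at 1.27 and 2.90 and then at 2.63 and 3.68. It was 3.09-fold and 2.06-fold higher.

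Egr1, Maff and Ppargc1b were also among the agreeing higher genes. Egr1, an immediate early factor, stood at 0.23 and 1.34 at 1 week and at 1.1 and 2.73 at 2 weeks, and Maff, a small MAF factor, at −1.22 and 0.38 and then at −1.59 and −0.54. Ppargc1b, a coactivator of oxidative metabolism, was higher by 1.15 and 1.61. Of 21 immediate early genes 2 were higher in both weeks and 12 lower in both, beside 31.1% and 21% of all features, with medians of −0.55 and −0.31. The 1-week median was −0.15 against the 2-week NC array. Olfr1115, Zfp606 and Glt1d1 were also among the 10 genes the rule named. A further Glt1d1 probe gave 0.17 and −0.31, so the probes of that gene disagree. A further Zfp606 probe gave 0.43 and 0.20, under 2-fold in each week.

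Cyp7a1, Oat, G6pdx and Slc51b were among the genes lower in both weeks. Cyp7a1, which sets the pace of bile acid synthesis from cholesterol, stood at 2.83 and 0.96 at 1 week and at 3.65 and 1.97 at 2 weeks, 3.66-fold and 3.20-fold lower (mean difference −1.77 ± 0.21 SE, limma adjusted p = 0.777). Its probe lies at chr4:6193456-6193515 (mm9, minus strand). On the CCl4 arrays the same probe read 0.74 and 3.76 at 1 week and 1.00 and 2.52 at 2 weeks, in the opposite direction. Over all features, limma called the miR-29a difference unequal between the agents for 0 of 18690 (0%), with 747 features at an unadjusted p under 0.05 and a smallest adjusted p of 0.231. All CCl4 arrays lay in 1 column of the slide and all TAA arrays in the other, so agent and slide column cannot be told apart.

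Oat, the ornithine aminotransferase of pericentral hepatocytes, stood at 4.15 and 2.57 and then at 5.74 and 4.31, 2.98-fold and 2.70-fold lower. In CCl4 livers Oat was at 4.42 and 5.32 and at 5.80 and 6.27, higher with miR-29a in each week. G6pdx, the enzyme that opens the pentose phosphate pathway, stood at 2.10 and 0.43 and then at 1.71 and 0.59. Slc51b, a subunit of the basolateral bile acid exporter, stood at −0.67 and −3.24 and then at −1.73 and −2.76, and was not well above background on the 1-week miR-29a array, so that it was at least 4.40-fold lower there. Of the 27 measured genes of the bile acid list 2 were past 2-fold lower in both weeks (0.433% of all features), and the medians were 0.37 and −0.19. Against the 2-week NC array the 1-week median was −0.40.

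Ly6d, Chil3, Il1b and Dvl2 were also lower in both weeks. Ly6d, a GPI-anchored surface protein, stood at 6.11 and 2.93 at 1 week and at 3.40 and 1.87 at 2 weeks, 9.07-fold and 2.88-fold lower. Ly6d lay between 0.47 and 0.92 on the CCl4 arrays. Chil3, a chitinase-like protein of activated macrophages, stood at 1.94 and −0.23 and then at −1.02 and −2.75, so its 1-week miR-29a array was above its 2-week NC array. Il1b, the cytokine interleukin-1 beta, stood at 1.18 and −1.63 and then at −1.27 and −2.33. Dvl2, a transducer of Wnt signals, was at 1.16 and −0.72 and at 1.04 and −1.20, 3.66-fold and 4.72-fold lower. Xlr4b, Ctcflos and Zbtb45 were the remaining genes named by the rule.

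For genes of cell division both miR-29a arrays tended to lie below both NC arrays. Cep55 and Cdc25a agreed between the weeks and stand outside the list of cell-cycle genes. Cep55, which acts in the last cut between daughter cells, stood at 1.77 and −2.55 at 1 week and at 0.14 and −3.12 at 2 weeks. It was 19.9-fold and 9.55-fold lower (mean difference −3.79 ± 0.34 SE, limma adjusted p = 0.449), and its values in CCl4 livers lay between −4.04 and −3.34. Cdc25a, the phosphatase that releases cyclin-dependent kinases, stood at 1.35 and 0.06 and then at 1.40 and 0.10, 2.45-fold and 2.46-fold lower. In CCl4 livers Cdc25a lay between −0.17 and 0.25, near the miR-29a arrays of the TAA livers.

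The median difference of the 31 measured cell-cycle genes was −0.93 at 1 week and −0.43 at 2 weeks, beside 0.13 and −0.01 for all features. In each week 28 of the 31 were lower with miR-29a (37.4% of all features at 1 week and 52.5% at 2 weeks), and 26 were lower in both, beside 21% of all features. For 24 of the 31 (77.4%) both miR-29a arrays lay below both NC arrays, beside 8.14% of all features, the highest share of the 52 lists. With the 2-week NC array in place of the 1-week NC array the median at 1 week was −0.90. Of the list 12 were past 2-fold lower at 1 week (6.24% of all features) and 4 at 2 weeks (1.59%). An unadjusted limma p under 0.05 was found for 14 (700 of 18690 features), and 0 were called. The medians stayed below 0 under median scaling (−0.92 and −0.59) and quantile normalization (−0.96 and −0.36).

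Ccnb1, the mitotic cyclin B1, stood at −0.70 and −2.41 at 1 week and at −0.65 and −1.87 at 2 weeks. Ccna2, cyclin A2 of S phase and mitosis, stood at 0.40 and −1.52 and then at −0.28 and −0.94, and Kif20a, a kinesin of the central spindle, at −1.09 and −3.30 and then at −1.05 and −1.59. All 3 were lower on each miR-29a array than on each NC array. Kif20a was not well above background on the 1-week miR-29a array and was at least 3.30-fold lower there. The proliferation marker Mki67 stood at 1.38 and 0.01 and then at 0.77 and 0.38, a smaller gap at 2 weeks. Against the list, Tk1, the thymidine kinase of S phase, was higher by 0.80 and 0.60, and Plk1, a mitotic kinase, differed by −1.0 and then by 0.84. Mki67, Tk1 and Plk1 were named after their values were seen. Aspm, Cenpm and Shcbp1, division genes outside the list, were lower in both weeks too but dim, being well above background on 2 or 3 arrays. These genes were also named after their values were seen, and division genes outside the list were not counted. In CCl4 livers 18 of the 31 were lower at 1 week and 16 at 2 weeks, with medians of −0.11 and −0.03. Of the 31, the difference between agents had an unadjusted limma p under 0.05 for 6 (747 of 18690 features) and was called for 0.

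**Figure D2:**
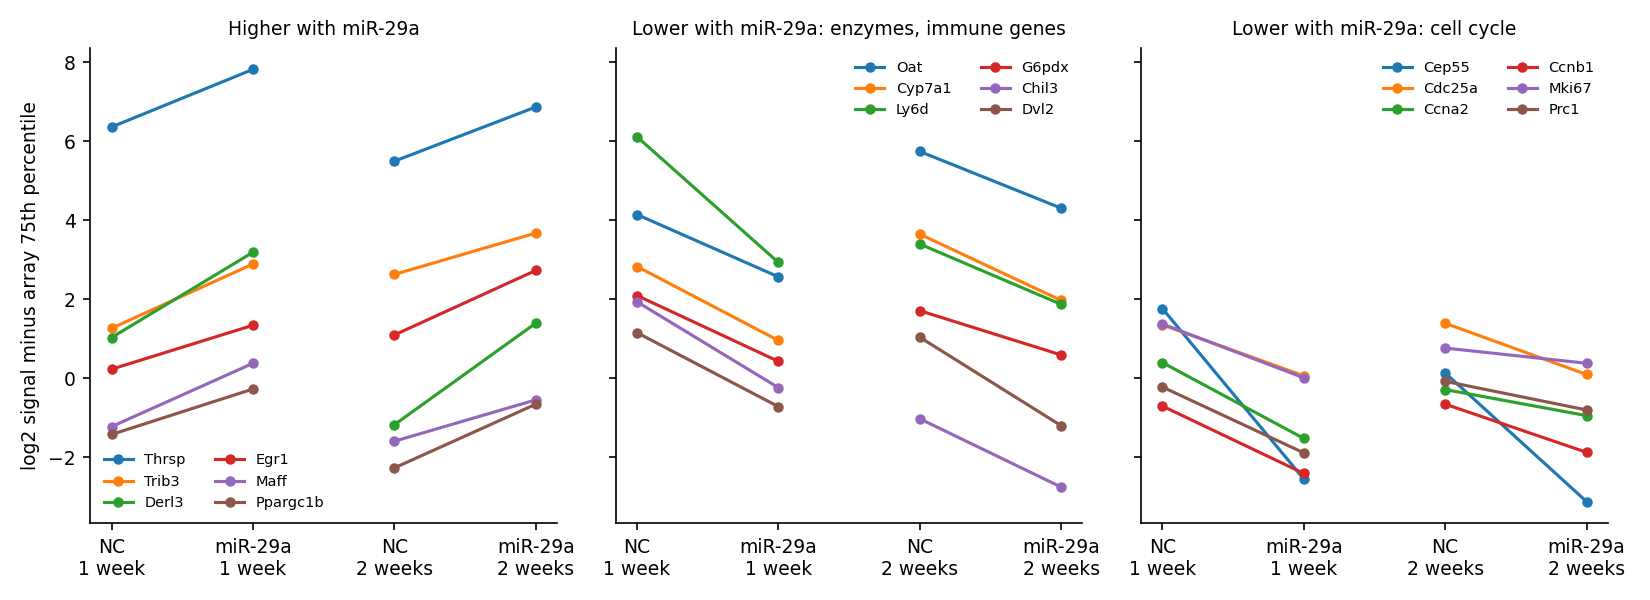
Levels (log2 signal minus the 75th percentile of the array) of agreeing genes on the 4 TAA arrays, with a line joining the NC and miR-29a arrays of each week. Ccna2, Mki67 and Prc1 were past 2-fold at 1 week and not at 2 weeks; every line of the left panel goes up and every line of the other panels goes down.

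Promoters of division genes are known to carry CCAAT boxes and the cell cycle genes homology region (TTTGAA). Stretches of 250 bases before to 50 after the gene start are printed from RefSeq (GRCm38.p6) for 3 agreeing division genes, Ccnb1 of the list and Cep55 and Cdc25a outside it, with each match to CCAAT or TTTGAA, on either strand, in capitals.

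Cep55: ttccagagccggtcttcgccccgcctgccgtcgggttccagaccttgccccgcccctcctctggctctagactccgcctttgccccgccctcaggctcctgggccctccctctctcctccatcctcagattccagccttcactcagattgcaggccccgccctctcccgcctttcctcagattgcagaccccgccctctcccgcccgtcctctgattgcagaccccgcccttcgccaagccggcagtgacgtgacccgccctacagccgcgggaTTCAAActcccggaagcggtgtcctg
Ccnb1: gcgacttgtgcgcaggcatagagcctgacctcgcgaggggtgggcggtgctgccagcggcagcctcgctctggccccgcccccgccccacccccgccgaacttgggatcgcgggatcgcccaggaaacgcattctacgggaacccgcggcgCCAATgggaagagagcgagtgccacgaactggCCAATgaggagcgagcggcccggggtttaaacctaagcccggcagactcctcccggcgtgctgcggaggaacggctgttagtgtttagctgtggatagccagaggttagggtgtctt
Cdc25a: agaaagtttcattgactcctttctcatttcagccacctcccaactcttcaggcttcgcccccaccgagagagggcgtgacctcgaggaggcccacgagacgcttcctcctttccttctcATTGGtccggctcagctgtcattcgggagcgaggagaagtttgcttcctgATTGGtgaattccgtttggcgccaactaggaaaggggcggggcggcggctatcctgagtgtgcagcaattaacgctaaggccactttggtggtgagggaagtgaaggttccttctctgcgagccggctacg

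They are chr19:38054734-38055033 (Cep55, plus strand, 1 of 2 starts listed), chr13:100786437-100786736 (Ccnb1, minus strand) and chr9:109875329-109875628 (Cdc25a, plus strand). The Ccnb1 window holds CCAAT at −99 and −67 from the start, the Cdc25a window holds it on the other strand at −131 and −81, and the Cep55 window holds TTTGAA on the other strand at 24. Promoters were listed for 24 of the 31 measured cell-cycle genes, which do not include Cep55 and Cdc25a. CCAAT was in 19 of them (79.2%), beside 41.1% of 27025 genes with a promoter, and TTTGAA in 12 (50%), beside 20.2%. The searched motifs do not overlap each other in the printed windows, and a match is a description of letters alone.

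Where a gene was well above background on both arrays of 1 oligonucleotide and neither of the other, only a lower bound on the fold can be given. Such genes passed the detection filter through the side where they are bright and had to differ, so they support nothing. The bound sets the bright group against the dimmest signal well above background on the dim array. With miR-29a as the bright side, Calcoco2, an autophagy receptor, was at least 4.86-fold higher at 1 week and 6.16-fold at 2 weeks. Pramel15 was at least 3.61-fold and 6.13-fold, and Slc7a3, a cationic amino acid transporter, at least 1.37-fold and 5.39-fold higher. Clec12b was at least 2.98-fold and 2.90-fold higher and Olfr235 at least 6.84-fold and 1.84-fold. With NC as the bright side, Trim6, a ubiquitin ligase, was at least 2.92-fold lower at 1 week and 14.8-fold lower at 2 weeks. Itln1, an intelectin, was at least 5.58-fold and 2.06-fold lower, and Olfr1496 at least 4.66-fold and 2.41-fold lower. Kcna10 was at least 2.76-fold and 2.91-fold lower and Tcf24 at least 1.88-fold and 1.63-fold lower. Most of these probes were also dim on the CCl4 arrays, but Tcf24 read between −1.02 and −0.03 there.

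At 1 week, acute phase, neutrophil and macrophage genes were lower on the miR-29a array. Lcn2, an iron-scavenging protein of neutrophils and inflamed hepatocytes, stood at 10.05 (NC) and 1.44 (miR-29a) at 1 week and at 0.69 and 1.23 at 2 weeks. S100a8, a calprotectin subunit, stood at 6.02 and −1.38 and then at −0.27 and −0.60, and Saa1, an acute phase protein made by hepatocytes, at 10.99 and 5.70 and then at 5.22 and 5.03. In each case a single array was high, the 1-week NC array, and the other 3 lay close together. The same held for Orm3 (8.20 against 0.75 to 1.46), the metallothionein Mt2 (10.13 against 3.06 to 3.49), S100a9, Cd14, Mt1 and Camp.

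Of 29 acute phase genes 20 were past 2-fold lower at 1 week (6.24% of all features) and 0 at 2 weeks (1.59%), with medians of −1.89 and −0.11. For 11 neutrophil genes the median was −3.03 at 1 week and for 18 Kupffer cell genes −2.13. At 2 weeks the latter medians were 0.01 and 0.07, and both were below 0 with median scaling, the neutrophil one also with quantile normalization. Marco, a Kupffer cell scavenger receptor, stood at 6.49 and 3.02 and then at 3.03 and 3.25. For 23 genes of infiltrating macrophages the medians were −1.57 and −0.03, and for 23 chemokines and cytokines −1.08 and 0.13, the last below 0 with median scaling. With the 2-week NC array in place of the 1-week one, these 5 medians were 0.05 (acute phase), −0.33 (neutrophil), −0.16 (Kupffer), −0.26 (infiltrating macrophage) and −0.16 (chemokines). Against the other NC array most of the gap was thus absent.

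**Figure D3:**
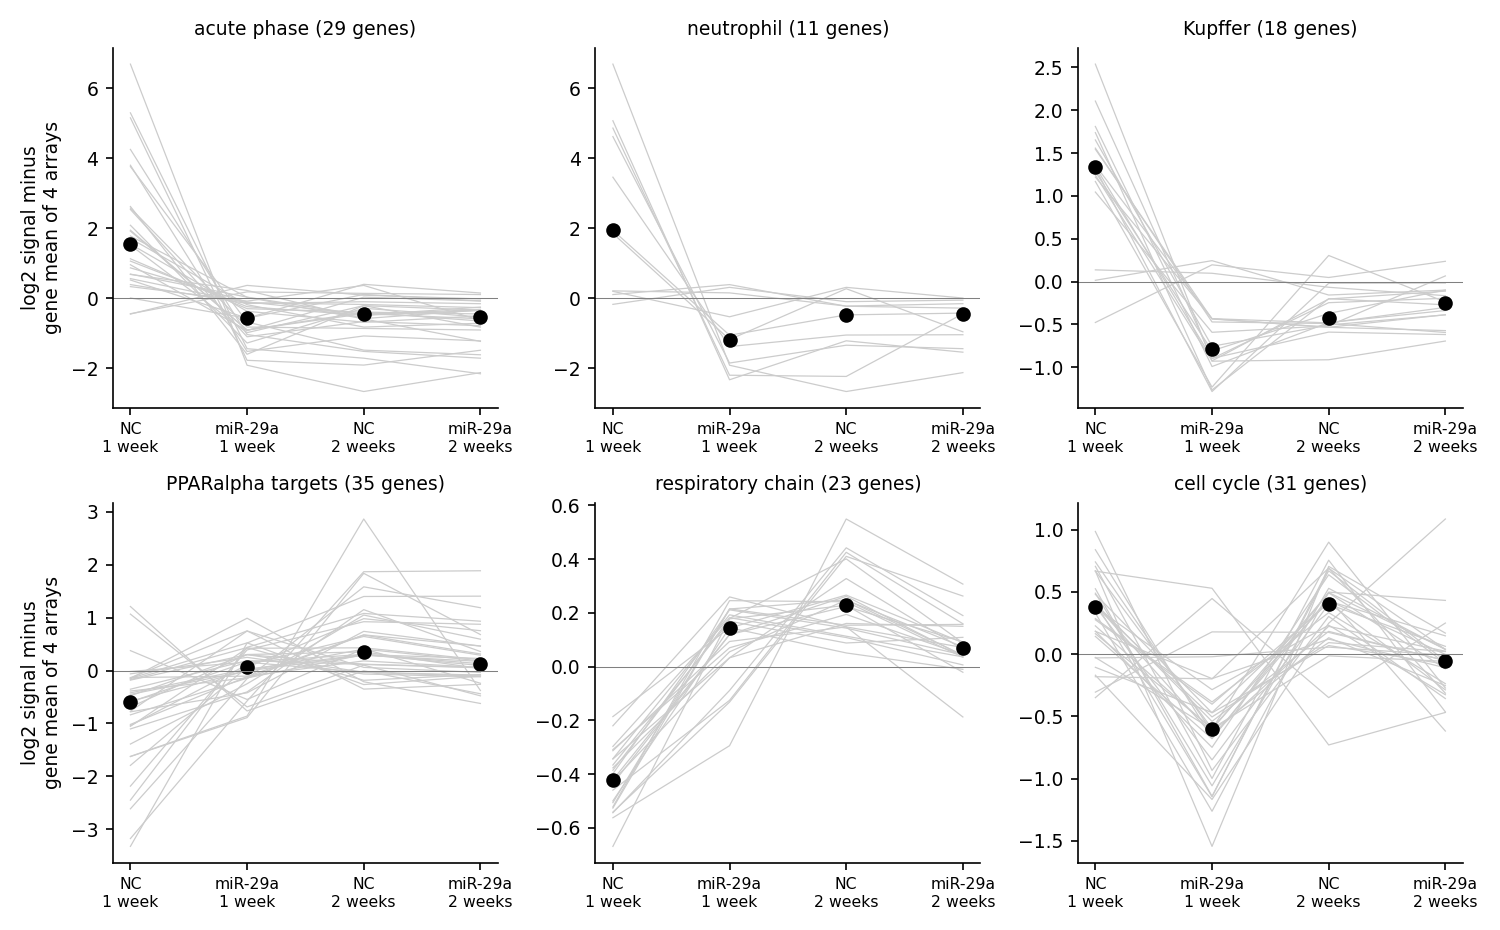
Genes of 6 lists on the 4 TAA arrays, each as log2 signal minus the mean of that gene over the 4 arrays (grey lines), with the list median on each array (black points); the y axes differ between panels. The acute phase, neutrophil and Kupffer panels are high on the 1-week NC array alone, whereas the cell-cycle medians are high on both NC arrays.

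Targets of PPARα and genes of the respiratory chain were higher at 1 week. Cyp4a14, a fatty acid hydroxylase and a known target of the lipid sensor PPARα, stood at 3.40 and 7.24 at 1 week and at 8.11 and 8.12 at 2 weeks. Acot1, a PPARα-driven thioesterase, stood at 0.48 and 2.94 and then at 4.67 and 4.28. Of 35 PPARα targets 32 were higher at 1 week (62.6% of all features) with a median of 0.73, and 30 were lower at 2 weeks (52.5% of all features) with a median of −0.21. All 23 respiratory chain genes were higher at 1 week (62.6% of all features, list median 0.48). At 2 weeks 21 were lower (52.5% of all features, list median −0.17). Against the 2-week NC array the 1-week medians of these lists were −0.44 and −0.10. The 1-week NC array itself was lower, with list medians of −0.90 and −0.66 against the 2-week NC array. For PPARα targets the 1-week miR-29a array was low as well. Against the 2-week NC array 7 of the 35 were past 2-fold lower on it and 2 higher (1236 and 1147 of 18690 features).

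The male-predominant genes of the liver, which growth hormone pulses are known to maintain, had a 1-week median of 0.92. Of the 27 measured, 25 were higher (62.6% of all features) and 13 past 2-fold higher (4.49%). Hsd3b5, a male-specific steroid reductase, stood at −2.19 and 5.71 at 1 week and at 4.33 and 4.88 at 2 weeks, and Elovl3, a fatty acid elongase, at −2.22 and 1.89 and then at 4.37 and 3.50. Rgs16, a brake on G protein signals, stood at −2.77 and 3.02 and then at 0.85 and 0.97. Mup21, a major urinary protein with near-identical relatives whose transcripts the probe may share, stood at 6.22 and 8.59 and then at 8.03 and 8.46. The male list was at 0.20 against the 2-week NC array and at 0.06 in the 2-week pair, the latter below 0 with median scaling. Cytochrome P450 genes were higher at 1 week in 33 of 35 cases (62.6% of all features), with medians of 0.72 and −0.10. Their 1-week median was −0.33 against the 2-week NC array, with 10 past 2-fold lower (1236 of 18690 features). Of the 569 features higher at 1 week alone 162 (28.5%), and of the 764 lower 142 (18.6%), were past 2-fold in the same direction against the 2-week NC array.

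**Figure D4:**
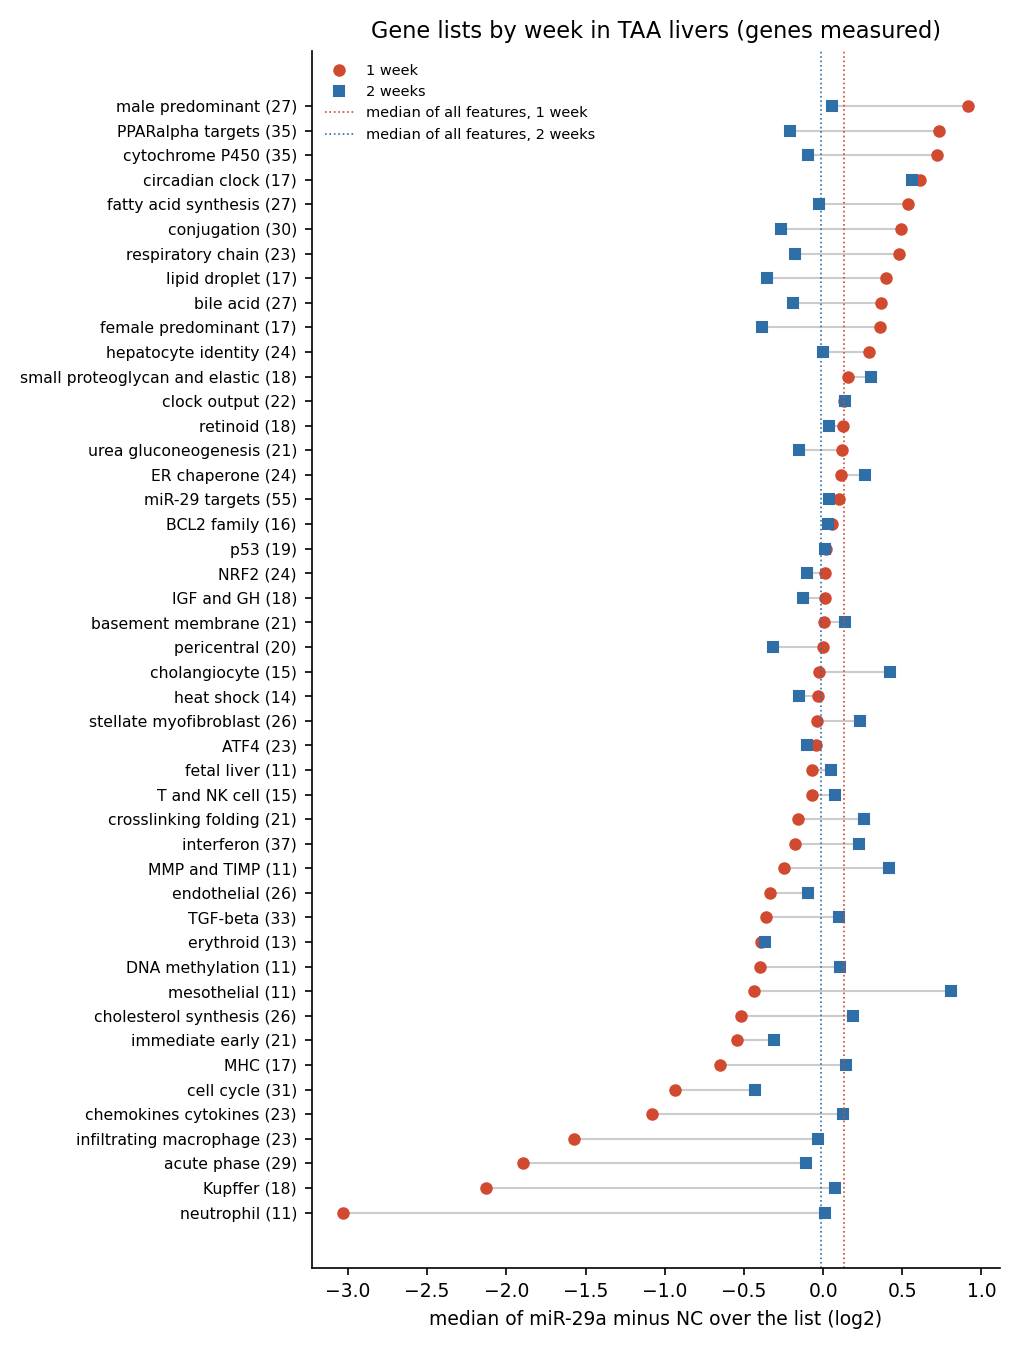
Median miR-29a minus NC difference (log2, x axis) of each gene list with at least 10 measured genes (number in brackets) at 1 week (circles) and 2 weeks (squares), with dotted lines at the medians of all features. Inflammatory lists reach −3.03 at 1 week and lie near 0 at 2 weeks, while the cell-cycle list is below and the circadian clock list above the medians of all features in both weeks.

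At 2 weeks the largest difference of an agreeing gene was that of Cyp26b1, an enzyme that clears retinoic acid. Retinoic acid is made from vitamin A, which stellate cells store, and acts through nuclear receptors that in turn raise the enzymes that break it down. Cyp26b1 stood at 0.25 and 1.32 at 1 week and at −2.49 and 4.30 at 2 weeks, 2.10-fold and 111-fold higher with miR-29a. The 2-week NC array was low as well as the 2-week miR-29a array high, since CCl4 arrays read between 0.72 and 3.54. Its close relative Cyp26a1 stood at 2.04 and 2.96 and then at 2.49 and 5.21, 6.59-fold higher at 2 weeks, with CCl4 arrays between 3.56 and 4.15. Rarb, a retinoic acid receptor, stood at 0.59 and 0.95 and then at −0.10 and 1.88, and Lrat, the enzyme that stores vitamin A as ester, at −0.59 and −0.31 and then at −0.84 and 1.40. For all 4 genes the 2-week miR-29a array was the highest of the TAA arrays. Rarb was named after its values were seen.

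The other retinoid genes gave small values at 2 weeks. Of 18 measured, 4 were past 2-fold higher at 2 weeks, beside 2.02% of all features. The list medians were 0.13 and 0.04, the latter below 0 with median scaling, and the 1-week median was 0.32 against the 2-week NC array. Rbp4, which carries retinol in blood, was at 9.62 and 10.22 and then at 9.93 and 9.92, and Aldh1a1, which makes retinoic acid, differed by −0.03 and −0.09. Receptors of retinoic acid are known to bind direct repeats spaced by 5 bases. Only the spelling GTTCA, 5 bases of any kind and AGTTCA was searched, on either strand. The 2 windows of the list that hold it are printed, with the match in capitals, because their genes were among the 4.

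Cyp26a1: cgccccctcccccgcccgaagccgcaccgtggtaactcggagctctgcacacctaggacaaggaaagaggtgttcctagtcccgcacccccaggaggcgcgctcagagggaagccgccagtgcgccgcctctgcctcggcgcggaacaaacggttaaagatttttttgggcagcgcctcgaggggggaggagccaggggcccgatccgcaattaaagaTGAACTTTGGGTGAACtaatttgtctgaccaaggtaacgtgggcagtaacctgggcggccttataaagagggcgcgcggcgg
Rarb: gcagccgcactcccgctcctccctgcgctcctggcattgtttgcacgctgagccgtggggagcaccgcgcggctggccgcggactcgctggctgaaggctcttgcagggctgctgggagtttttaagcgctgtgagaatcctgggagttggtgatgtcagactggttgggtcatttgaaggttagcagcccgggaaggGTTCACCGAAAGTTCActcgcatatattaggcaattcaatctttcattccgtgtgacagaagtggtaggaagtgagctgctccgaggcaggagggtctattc

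They are chr19:37697558-37697857 (Cyp26a1, plus strand, match at −32 on the other strand) and chr14:16575427-16575726 (Rarb, minus strand, match at −52), from RefSeq on GRCm38.p6. This spelling was in 11 of 27025 genes with a promoter (0.0407%) and in 2 of 13 retinoid genes with one. Other spellings of the repeat were not searched, so these counts describe letters alone and support nothing about the genes. Of the 11, 4 were measured: beside Cyp26a1 and Rarb these were Blvrb, with differences of 0.20 and −0.17, and Lcorl, with 0.50 and 0.05.

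Circadian clock genes keep daily time in cells and drive rhythmic genes of the liver. Most of them were higher with miR-29a, 11 of 17 in both weeks (31.1% of all features). Of the 17 measured, 15 were higher at 1 week (62.6% of all features) and 12 at 2 weeks (47.5%). The medians were 0.61 and 0.56 and stayed above 0 under both other scalings. The 1-week median was 1.21 against the 2-week NC array. Both miR-29a arrays lay above both NC arrays for 3 of the 17 (17.6%), beside 15.9% of all features. Usp2, a clock-driven deubiquitinase, stood at 3.40 and 4.39 at 1 week and at −0.07 and 2.50 at 2 weeks. Ciart, a repressor of the clock, stood at 0.11 and 0.83 and then at −3.32 and −0.08, Per3 at −0.25 and 0.43 and then at −3.25 and −0.85, and Per1 at 4.19 and 4.08 and then at 0.98 and 3.31. Ciart and Per3 were not well above background on the 2-week NC array, which leaves only bounds of at least 8.64-fold and 5.08-fold higher at 2 weeks. The activator gene Arntl, known to peak in antiphase to these, was lower in both weeks, at −2.52 and −3.14 and then at 1.15 and −0.26. Arntl was named after its values were seen. On the 2-week NC array the Per genes and Usp2 were lowest and Arntl highest of the TAA arrays. The sources used here give no hour of sampling. In CCl4 livers the list medians were also above 0, at 0.34 and 0.76.

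**Figure D5:**
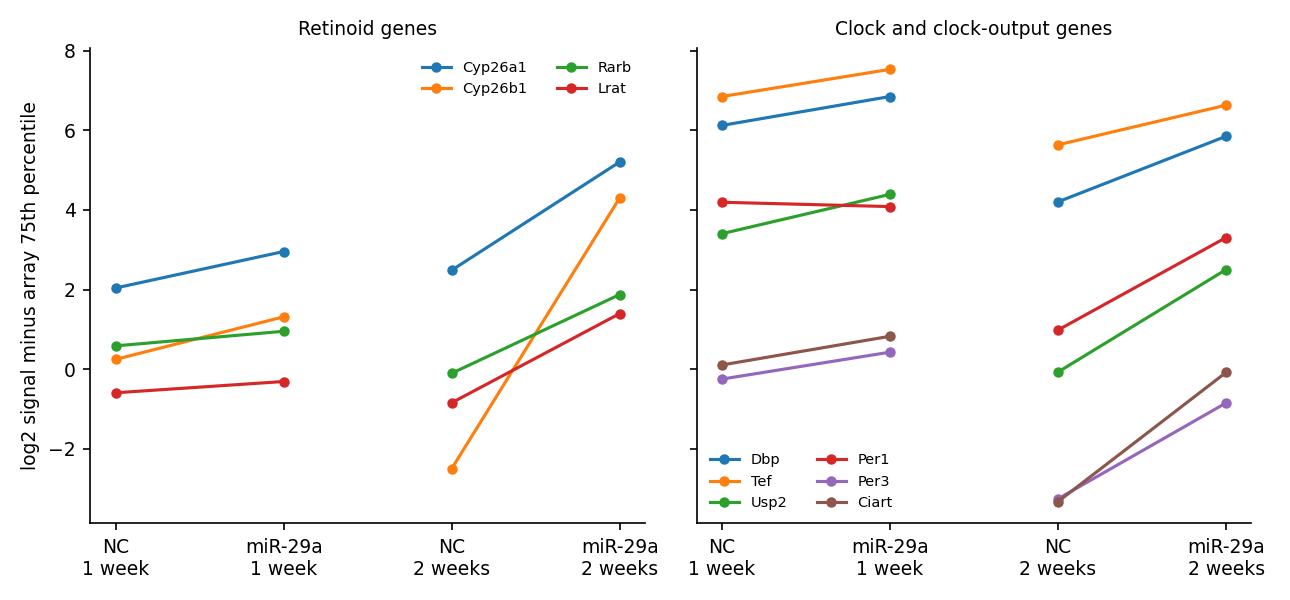
Levels (log2 signal minus the 75th percentile of the array) of 4 retinoid genes and 6 clock genes on the 4 TAA arrays, with a line joining the NC and miR-29a arrays of each week. The 2-week lines are steeper than the 1-week lines for all 10 genes, and for all of them but Cyp26a1 the 2-week NC array is the lowest. Ciart and Per3 were not well above background on that array.

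Smaller groups differed at 2 weeks. All 20 pericentral genes, which Wnt signals maintain around the central vein, were lower with miR-29a at 2 weeks (52.5% of all features), with a median of −0.31, while at 1 week 10 were lower and the median was 0.00. Against the 2-week NC array the 1-week median was −0.55, with 5 past 2-fold lower (1236 of 18690 features). Apart from Oat, the differences were small: Slc1a2, a glutamate transporter, differed by −0.86 and −0.75, and Glul, glutamine synthetase, by −0.12 and −0.35. Glul was named after its values were seen. Mesothelial genes were higher at 2 weeks, with 10 of 11 above 0 (47.5% of all features) and 5 past 2-fold (2.02%). Wt1, a transcription factor of mesothelium, stood at −1.81 and −1.37 and then at −1.60 and 0.02, and the summed level of 5 mesothelial markers was 1.32 and 0.81 at 1 week and 1.12 and 2.49 at 2 weeks. The CCl4 arrays had mesothelial medians of −2.09 and 1.12, so this list also varied in livers without TAA, and the part of liver surface in a sample was not tested. The haemoglobin gene Hbb-b1 was lower in both weeks, at 4.31 and 3.36 and then at 3.02 and 1.82, and its near-identical copies Hbb-b2 and Hbb-bt alike. Of 13 erythroid genes 8 were lower at 1 week (37.4% of all features), 10 at 2 weeks (52.5%) and 6 in both (21%). Their medians were −0.39 and −0.37, and the 1-week median was 0.35 against the 2-week NC array. Both miR-29a arrays lay below both NC arrays for 1 of the 13 (7.69%), beside 8.14% of all features. The part of blood in the samples was not tested.

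The single genes at 2 weeks alone were mostly dim. Zfp12, Bcas1, Pcgf2 and Irx4 were higher and Galnt12, Frg2f4, Mutyh, Fam71f2, Vmn2r85, Rab11fip2 and Abi3bp lower, and all lay at or below 0.48 on every TAA array. For Gabbr1 and Rab37 another probe had the opposite sign at 2 weeks (−0.86 and −0.30). Another Galnt12 probe differed by only −0.24 at 2 weeks, against −3.10 for the probe used. Gadd45g, a stress-induced growth arrest gene, was brighter, at 4.36 and 3.87 and then at 4.19 and 1.84.

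G6pc, Igfbp1, Txnip and Ppp1r3g were past 2-fold higher at 1 week and past 2-fold lower at 2 weeks. G6pc, the glucose-6-phosphatase that releases glucose from liver, stood at 4.19 and 7.11 at 1 week and at 7.24 and 5.47 at 2 weeks. Igfbp1, a binding protein of insulin-like growth factors that insulin represses, stood at 4.40 and 5.98 and then at 6.04 and 3.62, and Txnip, a glucose-responsive arrestin, at 0.69 and 2.44 and then at 2.97 and 1.34. Ppp1r3g, a glycogen-targeting phosphatase subunit, stood at 0.22 and 2.31 and then at −0.28 and −2.25. For G6pc, Igfbp1 and Txnip the 1-week miR-29a and 2-week NC arrays were the high pair. In the other direction, Smpd3, a sphingomyelinase, stood at 2.42 and −0.22 and then at −1.99 and −0.60.

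Matrix genes and reported targets of miR-29 differed in either direction. Col1a1, a chain of type I collagen, stood at 1.46 and 1.71 at 1 week and at 0.95 and 1.13 at 2 weeks, and Col1a2, the other chain, at 3.25 and 3.43 and then at 2.94 and 3.13. Col3a1, type III collagen, stood at 3.62 and 3.73 and then at 2.69 and 2.84. All 3 were higher with miR-29a in each week by 0.25 or less, each miR-29a array lying above its NC partner. Of 7 fibrillar collagens measured, 6 were higher in each week (62.6% and 47.5% of all features) with a median of 0.19 both times, and 5 were higher in both weeks. Against the 2-week NC array the 1-week median was 0.75, with 2 past 2-fold higher (1147 of 18690 features). The exceptions were Col5a2, at −0.24 and 0.93 and well above background on 2 of the 4 arrays, and Col5a3, at 0.93 and −0.02 (differences). Col27a1 differed most at 1 week, at −3.13 and 0.33 (levels). It was not well above background on the 1-week NC array and was at least 9.92-fold higher with miR-29a. Timp1, an inhibitor of matrix-degrading enzymes, stood at 0.03 and −2.28 at 1 week and at −2.45 and −1.96 at 2 weeks, high on the 1-week NC array alone. Pcolce2, an enhancer of procollagen processing, stood at −0.02 and −2.59 and then at −2.59 and −2.19. In CCl4 livers all 7 were below their NC values at 1 week and 5 were so at 2 weeks, with medians of −0.76 and −0.02. The difference between agents was called by limma for 0 of the 7 and had an unadjusted p under 0.05 for 1 (747 of 18690 features).

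The basement membrane collagens were lower at 1 week. Col4a1 stood at 0.92 and −0.36 and then at 0.74 and 0.56, and Col4a2 at 1.53 and −0.08 and then at 0.90 and 0.51. These 2 genes were lower in both weeks, past 2-fold at 1 week, while their list of 21 had medians of 0.01 and 0.14, below 0 with quantile normalization at 1 week and with median scaling at 2 weeks. The 1-week median was −0.06 against the 2-week NC array. Of the list 4 were lower in both weeks, beside 21% of all features.

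Of 64 reported miR-29 targets 55 were measured. At 1 week 31 were higher and 24 lower with miR-29a, and at 2 weeks 29 and 26. The medians were 0.10 and 0.04, beside 0.13 and −0.01 for all features, and turned below 0 with quantile normalization at 1 week and with median scaling at 2 weeks. Past 2-fold lower were 5 at 1 week (6.24% of all features) and 0 at 2 weeks (1.59%), past 2-fold higher were 2 in each week (4.49% and 2.02%), and 0 agreed. Lower in both weeks were 13 of 55, beside 21% of all features. Pdgfc, a platelet-derived growth factor, stood at −0.31 and −1.56 and then at 0.66 and −0.17, and Dnmt3b, a DNA methyltransferase, at 0.09 and −0.37 and then at 0.84 and 0.12. Insig1, a brake on sterol synthesis, went the other way, at 3.23 and 3.90 and then at 2.72 and 3.82, as did Bmf, a death-promoting BCL2 relative, at 1.03 and 1.91 and then at −0.42 and 0.97.

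The array probes themselves allow a narrow look at the seed match. In 116 features the 60-base probe holds TGGTGCT, and these had medians of 0.25 and 0.02, beside 0.13 and −0.01 for all features. Of the 116, 79 were higher at 1 week (62.6% of all features) and 65 at 2 weeks (47.5%). Past 2-fold lower were 6 and 2 (6.24% and 1.59% of all features), and 0 were so in both weeks (0.433%). On the target list 3 features had a probe with the match, with medians of 0.05 and −0.29. Stretches of 30 bases are printed for 2 of these 3, with the match in capitals.

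Pik3r1: aTGGTGCTtgttaacgctttctgaagcttt
Ppm1d: tcaataacaaaTGGTGCTgctaacacccaa

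They lie at chr13:102454436-102454465 (Pik3r1, minus strand) and chr11:85160462-85160491 (Ppm1d, plus strand) on mm9. Pik3r1, a regulatory subunit of phosphoinositide 3-kinase, differed by 0.52 and 0.04, and Ppm1d, a phosphatase that dampens the p53 response, by −0.51 and −0.38. The remainder of each transcript was not searched, so features without the match in the probe may hold it elsewhere.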

How the data were processed

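The data were 8 one-colour (Cy3) Agilent arrays of liver RNA, grouped by their labels into agent, week and oligonucleotide. The authors' intensity values per spot were made by Agilent Feature Extraction 10.10.1.1, per the file headers, with spatial and multiplicative detrending and with arrays not scaled to each other. The deposited flags (an other unit, 0 or 1 per spot) mark spots well above background, outliers and saturation. The authors also deposited a log2 matrix that equalled the log2 processed signal minus 1 constant per array (within 0.01 for 100% of 55657 probes), so its scale and direction follow from the values. Its column medians on the TAA arrays were −3.45, −3.46, −3.72 and −3.56 (1-week NC, 1-week miR-29a, 2-week NC, 2-week miR-29a), and on the CCl4 arrays −4.03, −4.06, −3.86 and −3.80 in the same order.

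Control and outlier-marked spots were left out, the log2 values of a probe's spots were averaged, and the array's 75th percentile was subtracted. All arrays lay on 1 slide and shared 1 scan. Names came from RefSeq GRCm38.p6 by accession (27641 probes), symbol (3400) or older symbol (321), and 24295 probes kept the name in the files. Coordinates of probes are those of the files (mm9). Differences over both weeks were fitted in R 4.3.3 by limma 3.58.1 (oligonucleotide and week, 4 arrays), and the agents were compared over 8 arrays with agent by week and agent by oligonucleotide terms. The files were read with data.table in version 1.17.8. Both fits used Benjamini-Hochberg adjustment over 18690 features, and the fit was checked on simulated data. Within a week there was 1 array against 1 and no test. A feature agreed when past 2-fold the same way in both weeks, and belonged to 1 week alone when past 2-fold there and under 0.5 log2 in the other. The 515 features past 2-fold in 1 week and at 0.5 or more in the other, and not in a class above, were counted and are named only where another rule named them.

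The 52 gene lists held 1180 genes, of which 948 were measured and 129 stood on several lists. The members, lists and tests were chosen with earlier results of these data known. Named genes were those agreeing (10 per direction on all 4 arrays, 5 measured on 1 side), those of 1 week alone (8 per direction), opposed genes (5 per way), the 3 members of each list with the largest mean difference and all measured matrix and target genes. The text gives part of them (1 opposed gene is not reported here) and says where a gene was added after its values were seen. Alternatives were normexp background correction with offset 50, median scaling, quantile normalization, the authors' matrix, other filters, probes, folds and fits, and leaving out arrays. One array per combination limits the precision, and dim probes are the least precise.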

Additional observations from a re-analysis of the deposited data

Results flagged for a closer look

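For these genes the difference at 2 weeks went opposite to that at 1 week, each being 1 pair of arrays, and the change of direction was not tested. The 2-week difference minus the 1-week difference (log2) was −4.69 for G6pc, −4.06 for Ppp1r3g, −4.01 for Igfbp1 and −3.38 for Txnip. For Rsf1, a chromatin remodelling factor, it was −4.25, but the 3 probes of this gene ranged from −1.08 to 1.62 at 1 week and from −2.63 to 0.85 at 2 weeks. In the other direction it was 4.04 for Smpd3, 3.43 for Neu3, a sialidase, 2.42 for Inhbb, an inhibin subunit, and 2.40 for Rab38, a vesicle GTPase.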

How the results depend on the processing

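Scaling by the array median gave 420 calls over both weeks in place of 0, with nearly the same spread used for every feature (142 degrees of freedom shared, against 2.68). Leaving out 1 TAA array in the fit of 8 arrays gave 67 calls (27 higher, 40 lower) without either 1-week array and 264 (93 higher, 171 lower) without either 2-week array, with the remaining array of that week assumed to vary like the others. Such a fit cannot speak for both weeks, so its calls are not given. The other alternatives gave 0 calls, with 354 (no week term) to 1404 (no filter) features at an unadjusted p under 0.05, and for TAA against CCl4 all gave 0.

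Counts past 2-fold moved with the treatment of dim probes. They are given in the order normexp, well above background on all 4 arrays, no filter, 1.5-fold, 4-fold and well above background on every array compared. At 1 week (2007) they were 714, 1222, 4862, 4681, 498 and 1300, and at 2 weeks (675) 196, 268, 3139, 1830, 208 and 368. Agreeing higher (73) were 8, 19, 234, 256, 22 and 19, and agreeing lower (81) 14, 22, 224, 221, 23 and 22. Of the 8 and 14 under normexp, 6 and 13 were among the 73 and 81. Opposed (151) were 20, 29, 436, 442, 56 and 29, and of 2 weeks alone (224) 93, 127, 1710, 819, 42 and 127. Of 1 week alone (1333), normexp gave 585, no filter 3047, 1.5-fold 3536 and 4-fold 243. With the 2-week NC array in place of the 1-week one, an alternative added after the data were seen, 2383 passed 2-fold at 1 week. Of 1 week alone there were then 1426, agreeing were 183 higher and 151 lower, of 2 weeks alone 142 and opposed 45. Both differences then share that array, which by construction raises agreement and lowers opposition. Median scaling, quantile normalization, the authors' matrix and the mean of a gene's probes kept these counts within 1.5 times.

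No paired analysis was possible because each group has 1 replicate, so replicate numbers pair nothing; the matched week is a term of the fit. Counts by seed sites in transcripts were not run, since no transcript sequences were used here. Features that agreed under all scalings, sources and probe choices numbered 6 higher and 12 lower. Among them, well above background on all 4 arrays, were Thrsp and Derl3 (higher) and Cep55, Ly6d, Dvl2, Cyp7a1, Oat and Cdc25a (lower). Others were not, such as Calcoco2, which was so on both miR-29a arrays alone and had to differ.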
